A study of Mus musculus with 8 samples.

Results

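Levels of 10 transcription factors that set B cell and plasma cell identity (Pax5, Ebf1, Foxo1, Spib, Bcl6, Bach2, Id3, Irf4, Prdm1 and Xbp1) were read in mouse A20 lymphoma cells with and without transfected IgE. The genes were taken by their symbols on the array, with every probe kept, which gave 13 probes for 10 of the 34797 gene names on the array. Pax5, Foxo1 and Bach2 had more than 1 probe each. All 13 probes passed the filter on dim signals, and 11 of them were well above background everywhere. In the IgE lines, Irf4, Ebf1, Id3 and Foxo1 were lower than in the control lines, and the other 6 genes did not pass the test.

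A20 is a B lymphoma line of the BALB/c mouse with the surface phenotype of a mature B cell. The groups were IgE clone 18 and IgE clone 41 (each a stable transfectant with IgE and a single clone), a stable transfectant with membrane IgM, and A20 cells that were not transfected, with 2 arrays for each of the 4 lines. The labels do not give the promoter of the transgenes, nor whether the IgM line is a clone. All 4 lines are A20 cells and share their medium (RPMI1640 with 10% serum, 50 µM beta-mercaptoethanol, 500000 cells/mL). Whether their genomes differ was not analysed here. For an array, 1 µg of RNA was used. The series set the IgE lines against both kinds of control.

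As background, Ebf1 and Pax5 start and then hold the B cell programme by switching on genes of the B cell receptor and its co-receptors, and Foxo1 acts beside them early and again in mature B cells. Bcl6 and Bach2 keep germinal centre B cells from leaving that state. Irf4 acts by its level: low amounts go with the germinal centre, and high amounts turn on Prdm1 (Blimp-1), which shuts the B cell programme down, while Xbp1 enlarges the secretory machinery of the plasma cell.

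The promoters of the 4 genes that were lower in the IgE lines are shown because these were the called genes. Each is the 250 bases before a RefSeq transcription start (GRCm38.p6), 5′ to 3′, with matches to the searched motifs in capitals. Ebf1 had 2 starts in the table.
Irf4 promoter (chr13:30748983-30749232, plus strand): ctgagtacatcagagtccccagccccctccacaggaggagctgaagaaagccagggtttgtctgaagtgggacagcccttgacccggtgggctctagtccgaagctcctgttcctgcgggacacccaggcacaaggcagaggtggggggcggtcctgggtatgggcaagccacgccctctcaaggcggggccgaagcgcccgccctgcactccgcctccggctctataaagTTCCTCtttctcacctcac
Ebf1 promoter, start 1 (chr11:44617850-44618099, plus strand): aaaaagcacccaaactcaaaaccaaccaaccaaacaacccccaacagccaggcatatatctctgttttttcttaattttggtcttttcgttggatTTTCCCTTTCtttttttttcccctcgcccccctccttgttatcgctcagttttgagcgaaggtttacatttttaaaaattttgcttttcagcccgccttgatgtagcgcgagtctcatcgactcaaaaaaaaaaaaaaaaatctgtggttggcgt
Ebf1 promoter, start 2 (chr11:44619978-44620227, plus strand): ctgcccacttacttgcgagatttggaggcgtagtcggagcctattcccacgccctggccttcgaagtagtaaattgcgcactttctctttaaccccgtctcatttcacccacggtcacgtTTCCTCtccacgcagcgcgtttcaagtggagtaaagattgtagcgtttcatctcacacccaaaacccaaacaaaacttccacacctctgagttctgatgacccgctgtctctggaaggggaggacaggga
Id3 promoter (chr4:136143572-136143821, plus strand): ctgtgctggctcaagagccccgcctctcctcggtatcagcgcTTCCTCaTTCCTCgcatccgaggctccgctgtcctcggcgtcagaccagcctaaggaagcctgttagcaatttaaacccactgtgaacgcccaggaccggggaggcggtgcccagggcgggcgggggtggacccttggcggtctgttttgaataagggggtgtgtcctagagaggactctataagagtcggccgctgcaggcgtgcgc
Foxo1 promoter (chr3:52268087-52268336, plus strand): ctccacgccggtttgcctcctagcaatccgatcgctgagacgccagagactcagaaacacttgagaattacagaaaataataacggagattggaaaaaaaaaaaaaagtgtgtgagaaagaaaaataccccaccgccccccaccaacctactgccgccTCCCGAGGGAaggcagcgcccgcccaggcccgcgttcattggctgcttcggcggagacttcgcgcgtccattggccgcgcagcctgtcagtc

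Both strands were searched for 9 motifs, and the share of all 32851 promoters with a match is the background. The Foxo1 promoter held the Ebf motif (TCCC, any 2 bases, GGGA), which reads the same on both strands, at -92 to -83 from the start, and 0.779% of promoters held it. The first Ebf1 promoter held the interferon response motif of Irf factors (GAAA, any 2 bases, GAAA) on the opposite strand at -155 to -146 (2.98% of promoters). The PU box GAGGAA of Spi factors stood on the opposite strand in the Irf4 promoter (-19 to -14), in the second Ebf1 promoter (-130 to -125) and in the Id3 promoter (-208 to -203 and -201 to -196), and 23.3% of promoters held it. No match in these 5 windows was found for the forkhead motif GTAAACA (3.17% of promoters), the E-box CAGGTG (17.2%), the Ets and Irf composite (GGAA, any 2 bases, GAAA, 2.3%), the Bach and Maf motif TGCTGAG (6.21%), the X-box core TGACGTG (1.65%) or the Bcl6 motif TTCCTNGAA (1.31%). No 2 matches overlapped. A match is a run of letters and not a measured binding site.

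What was hybridised was a 60-base probe, and those of Foxo1 and Id3 are shown because their calls were the least stable of the 4.
Foxo1 probe A_51_P138044 (mm9 chr3:52150183-52150242, plus strand): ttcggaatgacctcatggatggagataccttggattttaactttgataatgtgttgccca
Id3 probe A_51_P380178 (mm9 chr4:135700075-135700249, plus strand): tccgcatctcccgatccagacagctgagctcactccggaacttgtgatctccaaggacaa
The Id3 probe spans 175 bases of the genome, so its match to the genome is split. The Irf4 probe (A_55_P2109445) lies at mm9 chr13:30858532-30858591 and the Ebf1 probe (A_55_P2065513) at chr11:44818438-44818497, both on the plus strand. Exon and UTR positions of the probes were not analysed here.

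A level is the log2 processed intensity of a probe minus the 75th percentile of its array, so 0 is that percentile and 1 is a doubling, and levels of different probes are not compared. A probe was called when its limma adjusted p was under 0.05 and its change at least 2-fold. The 75th percentile was 474 to 524 intensity units on the IgE arrays and 584 to 664 on the control arrays, and 49.7% to 58.9% of spots on an array were well above background. All 14 mature B cell markers (such as Cd79a and Ms4a1) were well above background on every array. The heavy chain mu probe read 3.65 to 3.94 on the IgE arrays, 4.88 and 4.64 on the IgM arrays and 3.97 and 4.29 on the untransfected arrays. The epsilon probe (Ighe) read -0.13 to 0.48 on the IgE arrays, 0.09 and 1.02 on the IgM arrays and -1.21 and -0.31 on the untransfected arrays, so it did not separate the lines by their labels. Whether these probes match the transfected sequences is not stated. The 2 untransfected arrays stood apart from each other: the SD of their log2 difference over 24838 probes was 0.65, against 0.33 to 0.37 in the other lines. Each line filled its own column of the slide, so line and slide column cannot be told apart. Separate cultures for the 2 arrays of a line are not stated, so the spread behind each p-value may be only technical. Each n counts arrays, 2 from each line. The p-values of the fit with 1 mean per line do not measure the spread between clones, so they speak for these lines only. In bulk RNA, fewer cells that express a gene and less RNA per cell cannot be told apart.

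**Figure D1:**
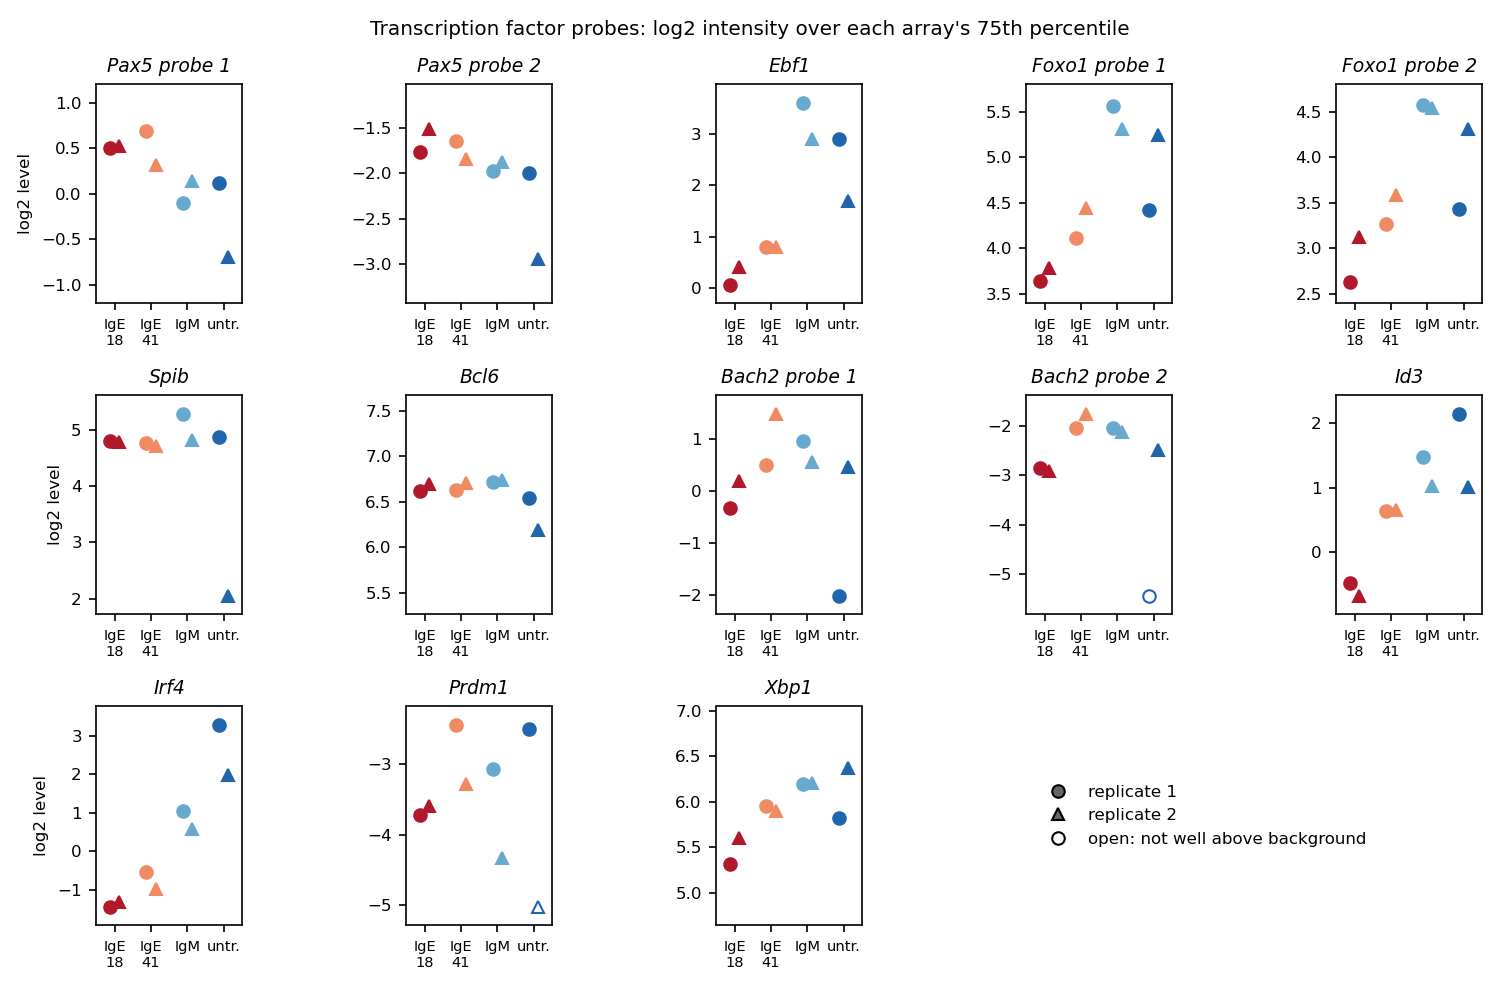
Log2 level (processed intensity over the array's 75th percentile) of the 13 probes on each of the 8 arrays, by line, with circles for replicate 1 and triangles for replicate 2. Probe 1 of a gene is its brighter probe, open symbols are not well above background, and each panel has its own axis. All 4 IgE arrays lie below all 4 control arrays for Irf4, Ebf1 and Id3, as for 9.92% of all probes tested. For Spib, replicate 2 of the untransfected line is far below the rest.

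Between the IgE and the control lines, 5 of the 13 probes (38.5%), from 4 genes, were called, all 5 lower in the IgE lines. Over all 29140 probes tested, 8.99% were called and 5.39% were called lower. The median change of the 13 probes was 0.11 on the log2 scale, and that of all probes was 0.051. The count was 2 without replicate 1 of clone 18 or of clone 41, where 6.8% and 7.34% of all probes were called, and 3 without replicate 2 of either clone or without IgM replicate 1 (7.04% to 7.94% of all probes). Irf4 and Ebf1 kept their call without any 1 array.

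Ebf1, a factor that commits progenitors to the B lineage, was lower in the IgE lines than in the control lines. Its level was 0.06 and 0.40 in clone 18 and 0.80 and 0.80 in clone 41, against 3.61 and 2.91 in the IgM line and 2.91 and 1.69 in the untransfected line. Every IgE array was below every control array, with a gap of 0.89. Such a gap in this direction was found for 9.92% of all probes. Ebf1 averaged 0.52 ± 0.36 in the IgE lines and 2.78 ± 0.80 in the control lines (SD, n = 4 each), a change of -2.26 ± 0.30 (SE, limma adjusted p = 0.00373). Leaving out 1 array gave -2.57 to -1.96. In order of level, clone 18 and clone 41 came first, then the untransfected line and the IgM line. The neighbours did not pass the test: clone 41 differed from clone 18 by 0.57 ± 0.42 (adjusted p = 1), clone 41 from the untransfected line by -1.50 ± 0.42 (adjusted p = 0.0979) and IgM from the untransfected line by 0.96 ± 0.42 (adjusted p = 0.363). Without untransfected replicate 2, clone 41 passed against the untransfected line (-2.11, adjusted p = 0.021).

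Foxo1, a forkhead factor held in check by PI3 kinase signals, fell on both of its probes. The brighter probe read 3.64 and 3.79 in clone 18 and 4.11 and 4.44 in clone 41, against 5.56 and 5.31 in the IgM line and 4.42 and 5.24 in the untransfected line. The highest IgE array exceeded the lowest control array, untransfected replicate 1, by 0.02, so the groups met. The means were 3.99 ± 0.36 in the IgE lines and 5.13 ± 0.50 in the control lines (SD, n = 4 each), a change of -1.14 ± 0.21 (adjusted p = 0.0133). The other probe, A_52_P453884, changed by -1.06 ± 0.23 (adjusted p = 0.024), and the 2 probes had a Pearson correlation of 0.986 over the 8 arrays. The call of the brighter probe was lost without untransfected replicate 2, where the change was under 2-fold (-0.93, adjusted p = 0.0107). It was also lost when replicate 1 of clone 18 was left out (-1.10, adjusted p = 0.0608), and when replicate 1 of clone 41 was (-1.06, adjusted p = 0.0541). The other probe lost its call when any 1 array was left out other than untransfected replicate 1 (-1.18 to -0.84, adjusted p = 0.0244 to 0.0927). Its call was also lost with all probes tested (adjusted p = 0.0779), in the authors' deposited table (-1.01, adjusted p = 0.0576) and when lines were a random block (adjusted p = 0.0542). In order of level the lines were clone 18, clone 41, untransfected and IgM on both probes. On the brighter probe the neighbours did not pass: clone 41 differed from clone 18 by 0.56 (adjusted p = 1), clone 41 from the untransfected line by -0.56 (adjusted p = 0.325) and IgM from the untransfected line by 0.61 (adjusted p = 0.412).

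Pax5, the factor that guards B cell identity, did not pass the test. Its brighter probe (A_55_P2126394) read 0.50 and 0.52 in clone 18 and 0.69 and 0.32 in clone 41, against -0.10 and 0.14 in the IgM line and 0.12 and -0.69 in the untransfected line. The IgE arrays were all above the control arrays, by a gap of 0.18 on this probe and 0.04 on the other, and 14.1% of all probes had such a gap in this direction. The changes were 0.64 ± 0.21 (adjusted p = 0.0787) and 0.51 ± 0.22 (adjusted p = 0.157). Without untransfected replicate 1 both probes passed in clone 18 and in clone 41 against the untransfected line (changes of 1.19 to 1.30, adjusted p = 0.0147 to 0.0287), while with both untransfected arrays they did not (changes of 0.72 to 0.83, adjusted p = 0.149 to 0.232).

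Spib, an Ets factor close to PU.1, had nearly the same level on 7 arrays. It read 4.81 and 4.79 in clone 18 and 4.76 and 4.71 in clone 41, against 5.29 and 4.82 in the IgM line and 4.87 and 2.05 in the untransfected line. Only untransfected replicate 2 stood away, 7.05-fold below replicate 1 of the same line, and 0.282% of probes differed as much between these 2 arrays. The change was 0.51 ± 0.56 (adjusted p = 0.574), it was -0.20 at the lowest when 1 array was left out, and without untransfected replicate 1 Spib was called higher in the IgE lines (1.21, adjusted p = 0.00438).

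**Figure D2:**
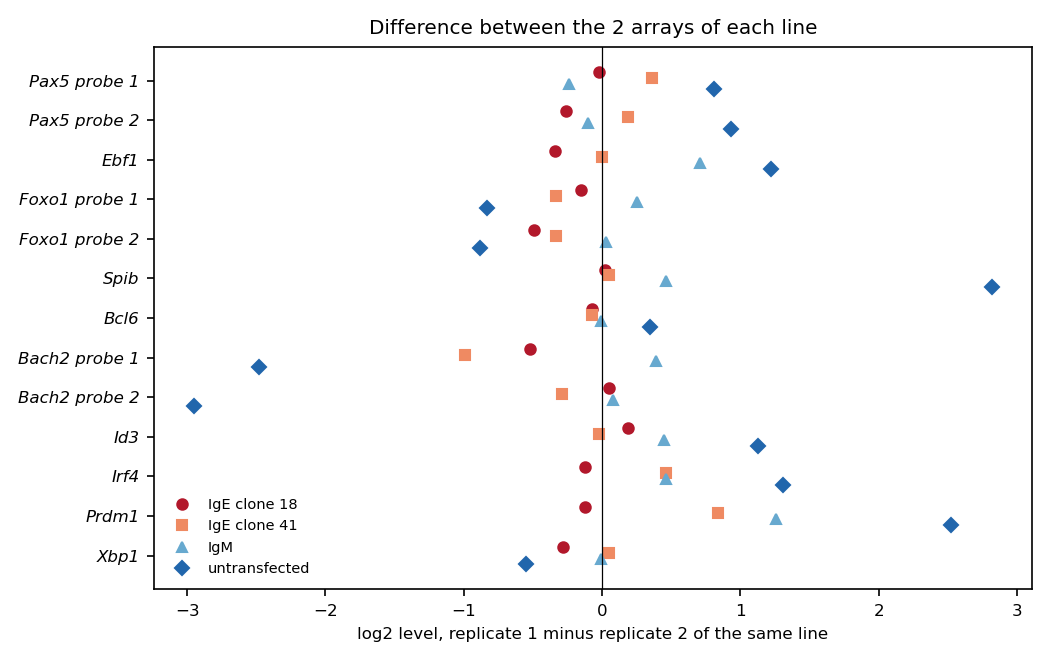
Difference in log2 level between replicate 1 and replicate 2 of each line for the 13 probes, with a symbol for each line. The untransfected line has the widest differences, with 2.82 for Spib, 2.52 for Prdm1 and -2.48 and -2.95 for the 2 Bach2 probes.

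Bcl6, the repressor that marks germinal centre B cells, was high in every line. It read 6.62 and 6.69 in clone 18 and 6.63 and 6.70 in clone 41, against 6.72 and 6.74 in the IgM line and 6.54 and 6.19 in the untransfected line. The spot was saturated on IgM replicate 1 and untransfected replicate 1, where the reading is only a lower bound. The measured change of 0.11 ± 0.13 (adjusted p = 0.595) is therefore an upper bound, and it was -0.29 in the authors' deposited table.

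Bach2, a repressor that delays plasma cell formation, differed between the 2 untransfected arrays by -2.48 on its brighter and -2.95 on its dimmer probe (replicate 1 minus replicate 2). Its brighter probe (A_66_P114768) read -0.32 and 0.20 in clone 18 and 0.50 and 1.49 in clone 41, against 0.96 and 0.57 in the IgM line and -2.01 and 0.47 in the untransfected line. Untransfected replicate 1 was the lowest on both probes, and on the dimmer one (A_55_P1956370, -5.44) it was not well above background. The changes were 0.48 ± 0.54 (adjusted p = 0.583) and 0.64 ± 0.58 (adjusted p = 0.49). Without untransfected replicate 2 the dimmer probe was called higher in the IgE lines (1.38, adjusted p = 0.00182), and the sign of both turned when other arrays were left out (-0.14 and -0.10 at the lowest).

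Id3, which binds and blocks the E proteins that drive B cell genes, was lower in the IgE lines and lowest in clone 18. It read -0.48 and -0.67 in clone 18 and 0.64 and 0.66 in clone 41, against 1.47 and 1.02 in the IgM line and 2.14 and 1.01 in the untransfected line. Every IgE array was below every control array, with a gap of 0.35, and clone 41 lay between clone 18 and the controls. A gap between IgE and control arrays in this direction was found for 9.92% of all probes. The means were 0.04 ± 0.72 in the IgE lines and 1.41 ± 0.53 in the control lines (SD, n = 4 each), a change of -1.37 ± 0.26 (adjusted p = 0.015). The call was lost without IgM replicate 1 (-1.26, adjusted p = 0.0528) and without any 1 of the 4 IgE arrays (-1.42 to -1.32, adjusted p = 0.0501 to 0.0645). With all probes tested it did not pass (adjusted p = 0.0566), nor when lines were a random block (adjusted p = 0.0553). In order of level the lines were clone 18, clone 41, IgM and untransfected. Clone 41 exceeded clone 18 by 1.23 ± 0.37, which did not pass (limma adjusted p = 0.577). Clone 41 differed from the IgM line by -0.59 (adjusted p = 0.398) and the IgM from the untransfected line by -0.33 (adjusted p = 0.762).

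Irf4, an interferon regulatory factor needed for both the germinal centre and the plasma cell, had the largest fall of the 10 genes. It read -1.44 and -1.32 in clone 18 and -0.53 and -0.98 in clone 41, against 1.05 and 0.59 in the IgM line and 3.29 and 1.98 in the untransfected line. The 4 lines did not overlap, in the order clone 18, clone 41, IgM and untransfected, and the gap between the IgE and the control arrays was 1.11. Of all probes, 9.92% had a gap between IgE and control arrays in this direction. How many probes separated all 4 lines was not counted. Irf4 averaged -1.07 ± 0.41 in the IgE lines and 1.73 ± 1.19 in the control lines (SD, n = 4 each), a change of -2.80 ± 0.30 (adjusted p = 0.00162). Leaving out 1 array gave -3.12 to -2.47. Neighbours in that order did not pass the test: clone 41 differed from clone 18 by 0.63 ± 0.43 (adjusted p = 1), clone 41 from IgM by -1.57 ± 0.43 (adjusted p = 0.076) and IgM from the untransfected line by -1.82 ± 0.43 (adjusted p = 0.112). Without untransfected replicate 2, Irf4 was called lower in the IgM than in the untransfected line (-2.47, adjusted p = 0.0169). Without either untransfected array it was called lower in clone 41 than in the IgM line, with the difference still at -1.57 (adjusted p = 0.0123).

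Prdm1, the repressor that shuts the B cell programme down in plasma cells, was near background. It read -3.72 and -3.60 in clone 18 and -2.45 and -3.28 in clone 41, against -3.08 and -4.33 in the IgM line and -2.51 and -5.02 in the untransfected line, the last not well above background. The groups overlapped throughout, and the change was 0.47 ± 0.58 (adjusted p = 0.612).

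Xbp1, the factor of the unfolded protein response, was bright in all lines. It read 5.32 and 5.60 in clone 18 and 5.95 and 5.90 in clone 41, against 6.19 and 6.20 in the IgM line and 5.82 and 6.37 in the untransfected line. Clone 18 was below the other 6 arrays, and clone 41 overlapped the untransfected line. The change was -0.45 ± 0.16 (adjusted p = 0.0998), short of both thresholds.

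Set against each control alone, the 2 clones gave different counts, and these comparisons share arrays. In clone 18 against the untransfected line 3 of 13 probes were called lower (Irf4 16.2-fold, Id3 4.45-fold and Ebf1 4.2-fold), where 7.46% of all probes were called and 3.96% were called lower. In clone 41 against the same line 1 was called (Irf4, 10.5-fold lower), with 5.51% of all probes called and 3.06% lower. In clone 18 against the IgM line 5 were called lower (Ebf1 8.16-fold, Irf4 4.6-fold, Id3 3.54-fold and Foxo1 3.31-fold and 3.21-fold on its 2 probes), with 8.84% of all probes called and 5.51% lower. In clone 41 against the IgM line 1 was called (Ebf1, 5.5-fold lower), with 7.23% of all probes called and 4.66% lower. Whether the clones differ was tested directly: no probe of the 13 passed between clone 41 and clone 18 (1 with an unadjusted limma p under 0.05, Id3), where 0.261% of all probes were called. None passed between the IgM and the untransfected line either (1 with an unadjusted p under 0.05, Irf4), where 1.82% of all probes were called. Pax5, Spib, Bcl6, Bach2, Prdm1 and Xbp1 passed between no 2 lines with all arrays kept, so their order by line is not given.

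These counts by line rested on single arrays. Without untransfected replicate 1, clone 18 had 5 probes called lower and 3 higher than the untransfected line (12.2% of all probes called), and clone 41 had 1 lower and 3 higher (10.2%). Without untransfected replicate 2, clone 41 had 3 lower and 2 higher (6.56%). Without either array of clone 18 that clone had 1 called lower than the untransfected line (2.63% and 3.0%). Against the IgM line, clone 18 had 0 called without clone 18 replicate 1 (3.7% of all probes), and 1 lower without clone 18 replicate 2 (4.06%) or without either IgM array (4.71% and 5.84%). Clone 41 had 4 called lower than the IgM line without either untransfected array (9.42% of all probes), and 0 without IgM replicate 1 (3.93%) or either array of clone 41 (3.34% and 3.89%). Between the IgM and the untransfected line Spib was called higher without untransfected replicate 1 (4.14% of all probes), and without replicate 2 Irf4 was called lower and both Bach2 probes higher (2.89%).

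**Figure D3:**
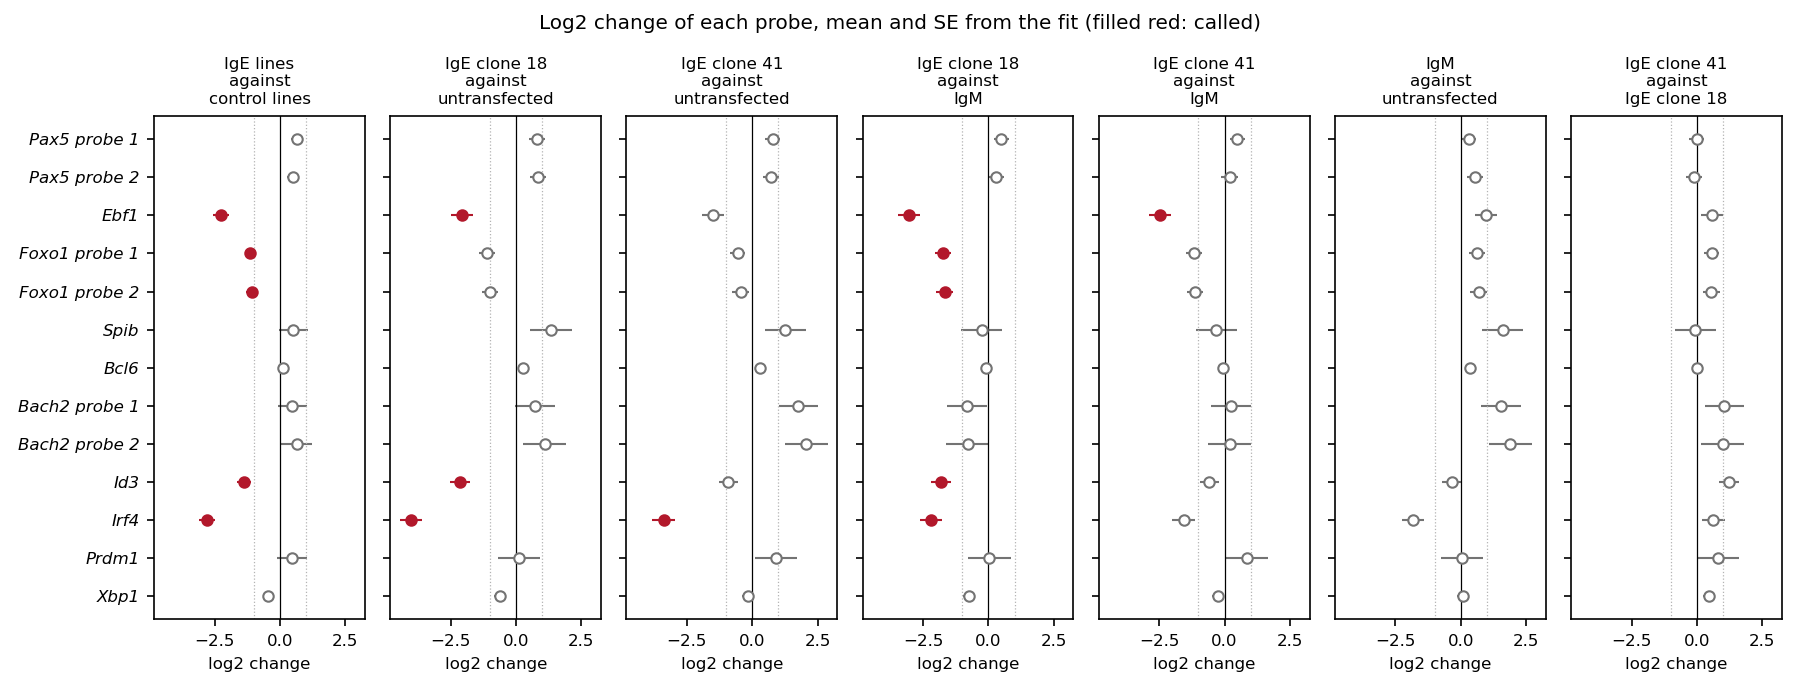
Log2 change of the 13 probes with its SE in each of the 7 comparisons, tested line over its control; filled red points were called (adjusted p under 0.05 and at least 2-fold, dotted lines). Irf4, Ebf1, Id3 and both Foxo1 probes are called in the pooled comparison, and none of the 13 is called in the last 2 panels.

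The genes whose levels followed each of the 4 falling factors most closely over the 8 arrays, out of 17358, were found by Pearson correlation. The correlations are a description, since differences between the lines enter every r and r does not give the size of a change. Irf4 was followed by 2410022M11Rik (r = 0.987), 9330175E14Rik (r = 0.985) and Marcks (r = 0.983), a substrate of protein kinase C. Ebf1 was followed by Ankrd44 (r = 0.992), Acadl (r = 0.99), a mitochondrial fatty acid dehydrogenase, and Ell3 (r = 0.985), an elongation factor. Foxo1 was followed by Ppm1h (r = 0.993), a phosphatase, Maml1 (r = 0.985), a Notch coactivator, and the transcript ENSMUST00000126647 (r = 0.984). Id3 was followed by Pycard (r = 0.993), the inflammasome adaptor, Plxnc1 (r = 0.981) and Ifi30 (r = 0.978). Between the IgE and the control lines, Maml1 (-0.31, limma adjusted p = 0.137) and Ifi30 (-0.96, adjusted p = 0.0551) did not pass. Ankrd44 (-0.62), Acadl (-0.54) and Pycard (-0.91) were under 2-fold, and the other genes that followed a factor were called lower. Among the 4 factors themselves, Irf4 and Id3 had r = 0.881, Ebf1 and Id3 0.844 and Ebf1 and Foxo1 0.83. Irf4 and Ebf1 had 0.766, Foxo1 and Id3 0.668, and Irf4 and Foxo1 0.582. Foxo1 had a higher r, 0.907, with Xbp1, which was not called.

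Genes that these factors are known to control were read from lists, 1 probe a gene, beside 8.97% called among all 19973 genes (3.39% higher and 5.58% lower, median change 0.041). When 1 array was left out the share called over the whole array changed too. List counts with 1 array left out are given without that share, so they do not show a change particular to a list. Of 19 tested genes activated by Pax5 or Ebf1, 5 were lower in the IgE lines and none higher, with a median of -0.82 (-0.82 to -0.67 over the alternatives). Complement receptor Cr2 (-1.67 ± 0.22, adjusted p = 0.00376) and the adaptor Bank1 (-1.17 ± 0.19, adjusted p = 0.00774) were among them. Cd72, an inhibitory receptor, fell by 1.24 (adjusted p = 0.00158), a call lost when lines were a random block (adjusted p = 0.143). Its mean level was 1.76 in clone 18 and 1.20 in clone 41, against 3.69 in the IgM line and 1.75 in the untransfected line, and the IgM line was 3.83-fold above the untransfected one (adjusted p = 0.00479). The low affinity IgE receptor Fcer2a fell by 1.82 (adjusted p = 0.0296), and that call was lost without IgM replicate 1 or any 1 IgE array (adjusted p = 0.0521 to 0.103) and against the IgM line alone (-0.70, adjusted p = 0.248). It was lost too when lines were a random block (adjusted p = 0.112), which left 3 of the 19 called, without the filter on dim probes (adjusted p = 0.0961) and in the authors' deposited table (adjusted p = 0.0548). Line by line, clone 18 had 4 of the 19 lower and 1 higher than the untransfected line (median -0.46). Against the IgM line it had 5 lower and 2 higher (median -0.87). Cd79a was among the lower genes against both controls, as given below. Those higher were Fcrla over both controls (4.29-fold, adjusted p = 0.0139, and 2.76-fold, adjusted p = 0.042) and Siglecg over the IgM line (2.31-fold, adjusted p = 0.038). In clone 41 none was higher, with medians of -0.55 and -0.66.

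Of 10 tested genes that Pax5 represses, 1 was lower, the adaptor Grap2 (-1.82 ± 0.34, adjusted p = 0.0135), and none was higher. Its call was lost when clone 18 replicate 1 (adjusted p = 0.0622) or clone 41 replicate 2 (adjusted p = 0.0502) was left out, without the filter on dim probes (adjusted p = 0.0537) and against the IgM line alone (-1.37, adjusted p = 0.0679). Of 12 genes that Bcl6 represses, 2 were lower, the activation marker Cd69 (-3.10 ± 0.28, adjusted p = 0.000789) and the egress receptor S1pr1 (-2.18 ± 0.37, adjusted p = 0.00955), and none was higher. The medians of these lists, 0.10 and 0.12, changed sign under some alternatives (-0.11 and -0.05 at the lowest). In each of these 2 lists 1 gene became higher without 1 array, IgM replicate 2 in the Pax5 list and untransfected replicate 2 in the Bcl6 list.

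Of 17 germinal centre genes, 4 were higher and 2 lower, with a median of 0.22. The G protein regulator Rgs13 rose most (6.24 ± 0.57, adjusted p = 0.000823), followed by Basp1 (3.96 ± 0.19, adjusted p = 5.01e-05), Gm600, now Nuggc (2.14 ± 0.20, adjusted p = 0.000921), and Mybl1 (1.76 ± 0.27, adjusted p = 0.0069), the last not called against the IgM line alone (1.17, adjusted p = 0.0563). The follicle homing receptor Cxcr5 fell (-3.58 ± 0.54, adjusted p = 0.00643). Fas fell by 1.03 (adjusted p = 0.0113), and its change was under 2-fold without untransfected replicate 1 (-0.93), IgM replicate 1 (-0.88) or clone 18 replicate 1 (-0.99) and against the IgM line alone (-0.66). Without untransfected replicate 2 there were 4 lower. The list holds Bach2, given above.

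Of 15 plasma cell genes, 3 were lower and none higher, with a median of -0.31. Prg2 had a mean log2 level of -5.52 in the IgE lines, where 1 of 4 arrays was well above background, and 0.49 in the control lines (adjusted p = 0.00131). Cd93 was at least 1.27-fold lower (adjusted p = 7.1e-05), with no IgE array and 2 of 4 control arrays well above background. Those 2 were the IgM arrays, and Cd93 was at least 3.29-fold higher in the IgM than in the untransfected line (adjusted p = 0.00203). Its call was lost with normexp background correction (-0.36, adjusted p = 0.0532) and, under 2-fold, in the authors' deposited table (-0.83, adjusted p = 0.00502). Edem1, which clears misfolded proteins from the endoplasmic reticulum, fell by 1.15 (adjusted p = 0.00855), but by 0.99 without IgM replicate 1 and by 0.82 against the IgM line alone, both under 2-fold. Without untransfected replicate 2 the plasma cell list had 5 lower and 1 higher. A bound stands for a fold where 1 side was not well above background on any array. Edem1 was also the 1 gene called among 24 secretory genes that depend on Xbp1, and the median of that list, 0.03, was -0.17 after quantile normalization. That list had 3 lower without untransfected replicate 1, 2 without IgM replicate 2, clone 18 replicate 2 or clone 41 replicate 2, and 0 without IgM replicate 1.

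Of 17 Foxo1 target genes, 2 were higher (the death gene Bcl2l11, 2.18 ± 0.30, adjusted p = 0.00435, and the trafficking factor Klf2, 1.03 ± 0.21, adjusted p = 0.0201) and 1 was lower (S1pr1, as above). The list median was -0.67, but -0.09 without untransfected replicate 2 and -0.32 without IgM replicate 2. Set against the untransfected line alone it was 0.04 in clone 18 and -0.06 in clone 41, and against the IgM line -0.51 and -0.32. Without untransfected replicate 1 there were 6 lower and 1 higher, and without replicate 2 there were 1 lower and 4 higher. Klf2 was not called without untransfected replicate 1, IgM replicate 1, clone 18 replicate 2 or either array of clone 41 (0.86 to 1.08, adjusted p = 0.0248 to 0.0733), and it was under 2-fold with normexp background correction (0.62) and in the authors' deposited table (0.67). Of 7 genes that Bach factors repress, 1 was higher, the quinone reductase Nqo1, at least 1.71-fold (adjusted p = 0.00161), which no control array measured above background, and the list median was 0.34. Nqo1 was under 2-fold with normexp background correction (0.74) and in the authors' deposited table (0.72), and no gene of that list was called there or with the stricter filter on dim probes.

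Among 27 tested family members and partners of the factors (median 0.09), 2 were lower and none higher, with 4 lower without untransfected replicate 1, 1 higher without IgM replicate 1 and 2 higher without IgM replicate 2. Spic, an Ets factor of the same family as Spib, fell by 4.08 (adjusted p = 0.000784, 3 of 4 IgE arrays well above background), and Pax7, a relative of Pax5 known from muscle, was at least 6.19-fold lower (adjusted p = 0.00108). Irf8, which shares a composite site with Irf4, differed by -0.91 ± 0.21 (adjusted p = 0.0318), and Foxo3 by -0.88 ± 0.18 (adjusted p = 0.0181), both short of 2-fold. Tcf4, an E protein that Id3 can bind, differed by 0.88 ± 0.18 (adjusted p = 0.0185), also short of 2-fold.

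Among 30 other B lineage factors (median 0.07), 3 were lower and 2 higher. Lef1 fell by 2.72 (adjusted p = 0.00905), Myb by 1.47 (adjusted p = 0.00356) and Aff3 by 1.28 (adjusted p = 0.00878). Aff3 lost its call when lines were a random block (adjusted p = 0.146), and it was higher in the IgM than in the untransfected line (3.9-fold, adjusted p = 0.0285). Runx3 rose by 1.22 (adjusted p = 0.00302), and Klf2 is given above. With normexp background correction Runx3 was under 2-fold (0.97) and none of this list was higher. Stat5b was not called between the IgE and the control lines, but it differed between the clones. It was higher in clone 18 than in the untransfected line (3.27-fold, adjusted p = 0.00179) and the IgM line (3.47-fold, adjusted p = 0.00124). In clone 41 it was 3.16-fold lower than in clone 18 (adjusted p = 0.0162).

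The median change of the 14 mature B cell markers was 0.04, and -0.22 without untransfected replicate 2. Judged by adjusted p alone, 4 were lower and 2 higher. Cd79a was lower in clone 18 than in the untransfected line (2.17-fold, adjusted p = 0.0199) and the IgM line (2.28-fold, adjusted p = 0.0137). H2-Eb1, saturated on 2 arrays, was higher in clone 41 than in the IgM line (2.05-fold, adjusted p = 0.0202). Markers of other cell types moved in part with the groups. Of 10 tested T cell markers 2 were lower in the IgE lines (Cd3g and Cd5) and none higher (median -0.25), and of 7 tested myeloid markers 2 were higher (Cd68 and Fcgr3) and 1 was lower (Emr1, now Adgre1; median 0.31). The 14 T cell markers summed to 17.3 to 21.2 multiples of the 75th percentile on the IgE arrays and 11.6 to 18.5 on the control arrays, and the 14 myeloid markers to 54.0 to 75.6 and 47.4 to 60.5. Cd3g was well above background on the 2 IgM arrays and on no IgE or untransfected array, and it was at least 13.9-fold higher in the IgM than in the untransfected line (adjusted p = 0.00647). Its call between the IgE and the control lines was lost when lines were a random block (adjusted p = 0.0737). The part of these markers in the results on the factors was not tested.

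**Figure D4:**
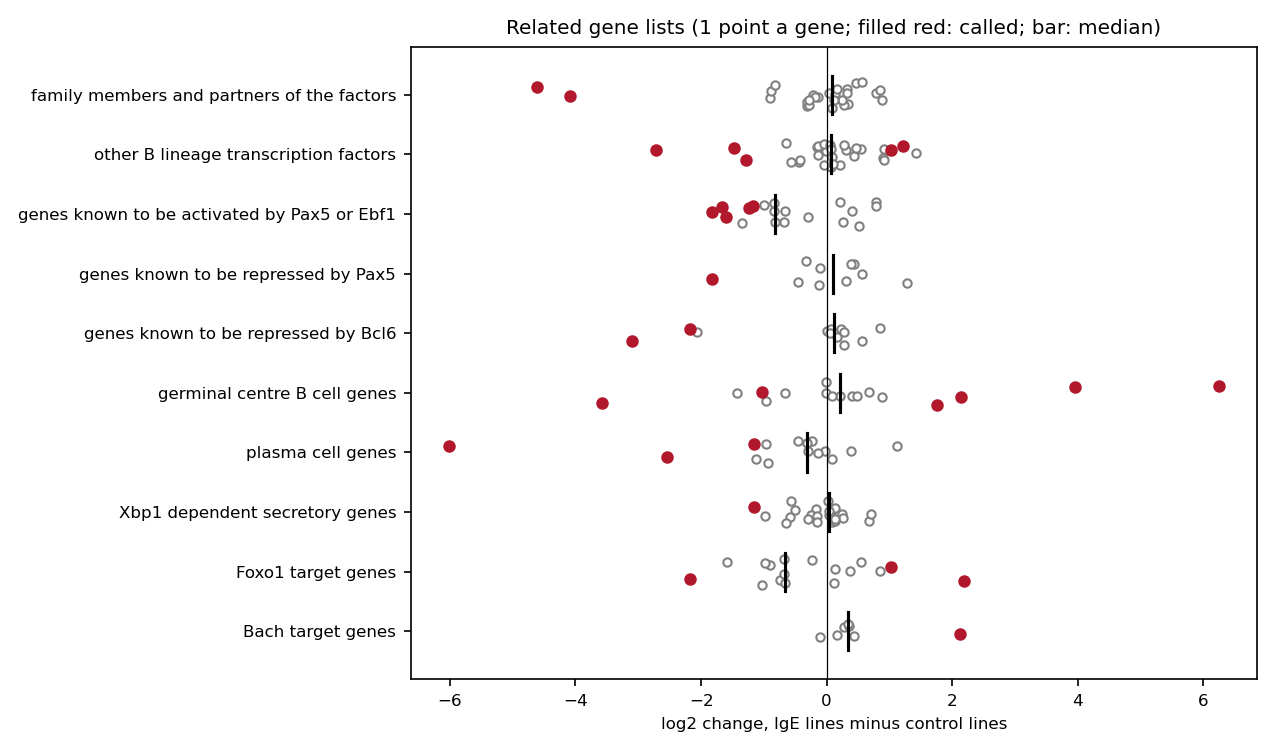
Log2 change between the IgE and the control lines of each tested gene in 10 lists of related genes, with called genes in red and the list median as a bar. Genes activated by Pax5 or Ebf1 have a median of -0.82 with 5 called, all lower, while germinal centre genes have calls on both sides. For Pax7, Cd93 and Nqo1 the point is a fitted value with 1 side not above background, and for Prg2 with 1 of 4 IgE arrays above it.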

How the data were processed

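RNA of the 4 A20 lines was hybridised, 2 arrays a line, with 1 dye to Agilent arrays of design 028005. The processed intensity used here was made by the authors' scanner software, Agilent Feature Extraction 10.7.3.1, per the file headers: background subtracted and detrended, with no scaling between arrays. A deposited log2 table of the series, with column medians of 5.9 to 5.92, was used as an alternative, and its normalization is not given in the sources used here. Sample titles gave the groups and the replicate numbers.

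Control spots and outlier spots were left out, spots of a probe were averaged, and the log2 intensity was set relative to the 75th percentile of each array. A probe was kept if some line had it well above background on both its arrays (29140 of 55681). A model with 1 mean per line over all 8 arrays was fitted with limma 3.58.1 in R 4.3.3 (4 residual and 2.74 prior degrees of freedom), two-sided, with Benjamini-Hochberg adjustment over all probes in each comparison. The script was tested on simulated data. A list gene was read from its brightest probe. Where 1 side was not well above background on any array, its bound used the lowest signal of probes above background there. The number of arrays limits the precision.

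All 10 factors were named, with the 3 most correlated genes of each called factor. Of each of 13 lists, up to 4 called genes in each direction were named (up to 2 in other comparisons). Irf8, Foxo3 and Tcf4 were named too, although they were not called. Cd79a and Ms4a1 were named as examples of their list. The members and lists were chosen with earlier results of these data known. IgE lines against the IgM line alone was an alternative chosen after seeing the data. The replicate numbers were not taken as pairs. The values of 1 gene of these lists are not reported here. Promoter letters are from RefSeq.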

Additional observations from a re-analysis of the deposited data

Results flagged for a closer look

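In 4 of 26 groups of 4 arrays (13 probes, IgE and control side), 1 array lay far from the other 3, with a share of the group's whole range in that gap above Dixon's critical value. Chance flags about 1 in 20 groups when all 4 values come from 1 distribution. Here each group pooled different lines, and the Bach2 probes were correlated (r = 0.964), so that rate is no measure for these groups. In each of the 4 the outlying array was of the untransfected line. Spib read 2.05 on untransfected replicate 2, against 4.82 to 5.29 on the other control arrays. The dimmer Pax5 probe read -2.94 on the same array, against -2.0 to -1.88. On untransfected replicate 1, Bach2 read -2.01 on its brighter probe, against 0.47 to 0.96, and -5.44 on the dimmer one, against -2.49 to -2.04. What sets these arrays apart was not tested. Spib and Bach2 gained a call when the other untransfected array was left out, as given above.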

How the results depend on the processing

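Of 2287 single values recomputed under the alternatives, 2156 kept their side of the threshold, 99 lost and 32 gained a call, and no called value changed sign. Irf4 and Ebf1 were called in the pooled comparison under every alternative run. The count of called probes there was 5 (8.99% of all probes called). It was 3 without a filter on dim probes (3.7%) or when lines were a random block (6.88%), and 4 in the authors' deposited table (5.24%). In clone 18 without the filter it was 1 of 3 against the untransfected line (1.97% of all probes called, 7.46% with the filter). Against the IgM line it was 1 of 5 without the filter (2.88%, and 8.84% with it) and 3 of 5 in the authors' deposited table (5.37%). In clone 41 against the IgM line it was 1 (7.23% of all probes called) and 0 without the filter (2.25%). It was 2 with normexp background correction (4.84%) and 4 with a trend and robust prior (7.57%). Without the filter more probes shared the adjustment, and the SE from the fit changed too (0.28 against 0.26 for Id3 in the pooled comparison). What caused the changes in count was not tested. With 1 array left out the pooled count was 2 to 6. Clone 18 had 1 to 8 against the untransfected and 0 to 5 against the IgM line, clone 41 had 1 to 5 and 0 to 4, the IgM against the untransfected line 0 to 3, and clone 41 against clone 18 had 0. When an array was left out, the lone array of its line was assumed to vary like the others.

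The replicate numbers shared between lines were checked as pairs. Correlations of deviations between same-numbered arrays were -0.07 to 0.35, above 0.1 in 4 of 6 pairs of lines but not in all, so the numbers were not taken as pairs. With the replicate block, clone 41 against the IgM line had 2 called probes (7.55% of all probes called). Irf4 was the added one (limma adjusted p = 0.0484), and the other 6 counts were as without the block. The number of arrays and dim signal (Prdm1 and the dimmer Bach2 probe) limit these values.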
